A study of Mus musculus with 4 samples.

Results

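Fatty acid oxidation in mouse fat was described through 32 genes, chosen by name as 20 mitochondrial enzymes and carriers, 11 peroxisomal proteins and the regulator Ppara. All 32 were found on the array by gene symbol or gene ID, 8 of them under an older symbol in the authors' deposited table (Dci for Eci1, Hadhsc for Hadh), among 13108 genes in all. They were read by 48 of the 22626 probe sets of the Affymetrix array, a probe set being a group of probes for a transcript. Crat and Eci2 are known in both organelles. Crat was counted here with the mitochondrial and Eci2 with the peroxisomal members.

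RNA was measured in 4 groups of 1 array each. Primary mouse adipocytes cultured from visceral fat received 10 µM forskolin, which activates adenylyl cyclase and raises cAMP, or the DMSO vehicle, for 2 h in each case. Whole epididymal fat pads came from mice fed a 60% high fat diet over 12 weeks or from control mice on normal chow. The headers of the deposited table mark both fat arrays WT. Strain, age, the number of cultures and the number of mice behind each array are not given in the labels. Since a single array stands for each group, no difference could be set against replicate spread and none was tested. The number of arrays is the limit on precision.

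Values are deposited intensities on a linear scale, and differences are on the log2 scale, forskolin minus vehicle in adipocytes and high fat diet minus chow in fat. A gene was called when it was at least 2-fold apart and its brighter array reached that array's median over genes (306 with forskolin, 307 with vehicle, 422 on the high fat diet, 365 on chow). Where a gene had several probe sets, the brightest on average among those with most values was used. Levels were not compared between genes, since each probe set has its own brightness. Adipoq, the adipocyte hormone gene, read 10449 with forskolin, 10261 with vehicle, and 9962 on the high fat diet against 10456 on chow, so fat cell RNA was present on each array.

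Fatty acids enter mitochondria as carnitine esters through the carnitine shuttle and are then shortened in a 4-step cycle of dehydrogenation, hydration, a second dehydrogenation and thiolysis. Electrons from the first step pass through the electron transfer flavoprotein to the respiratory chain. Peroxisomes shorten very long, branched and dicarboxylic fatty acids with their own enzymes, and their first oxidation gives hydrogen peroxide, which catalase removes. Ppara encodes the nuclear receptor PPARα, known in liver to drive genes of both organelles.

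On the high fat diet the enzymes of the core mitochondrial cycle lay, as deposited, within 1.5-fold of chow by the probe sets used, while its entry and several auxiliary and peroxisomal genes differed more. Of the 31 members with a value on both fat arrays, 5 were called at least 2-fold lower (Acsm3, Eci3, Ehhadh, Crat and Pex11a) and 2 at least 2-fold higher (Cpt1a and Abcd2). The level was reached by 27 of the 31 members and by 7183 of the 12939 genes with a value on both fat arrays. Of the 7183 genes, 5.97% were called lower and 15.6% higher. After centring the shares over all genes that reached the level were 9.33% lower and 12.2% higher, and after quantile normalization 11.9% lower and 12.0% higher. Acsm3, Eci3 and Ehhadh reached it only through the chow array. Etfdh had no value on the chow array and has no diet difference.

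The scaling between the fat arrays touches every small diet difference. The median difference of all genes was 0.05 as deposited, -0.15 after each array was centred on its median over genes, and -0.11 after quantile normalization. Over the 31 members it was -0.11, -0.32 and -0.46 under the same 3 scalings. In the median of all genes the shifts from the deposited scale were -0.21 for centring and -0.16 for quantile normalization.

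**Figure D1:**
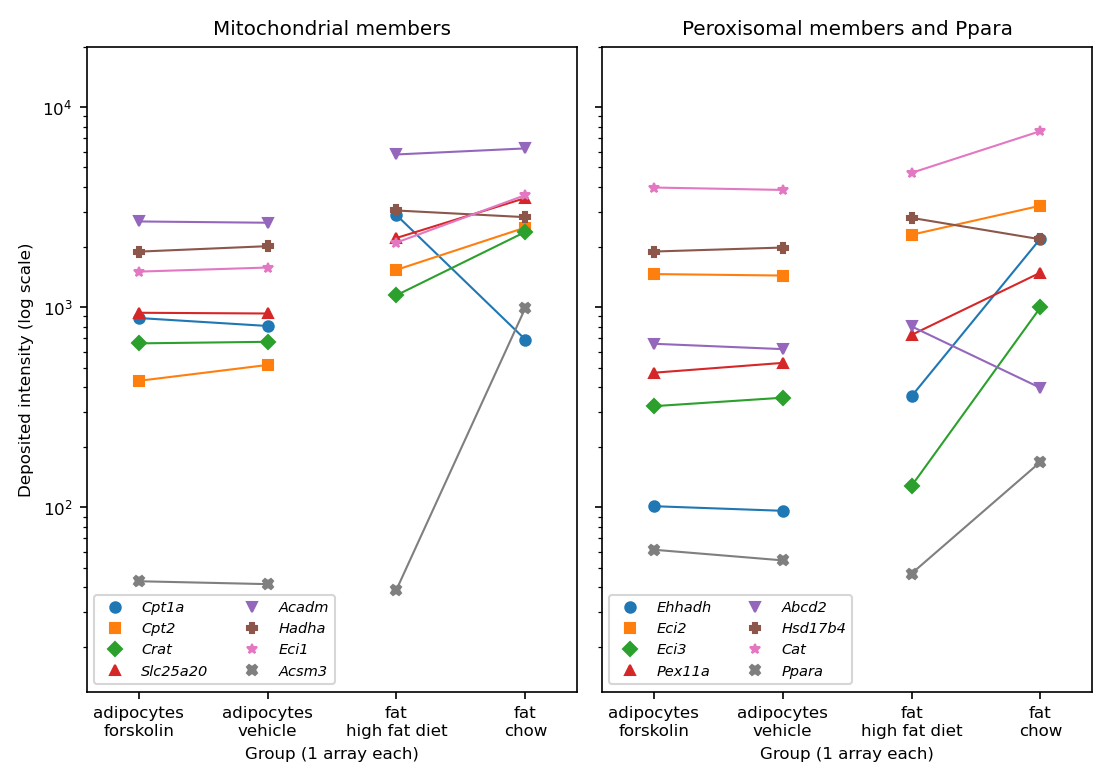
Deposited intensity (log axis) of 8 mitochondrial members (left) and of 7 peroxisomal members and Ppara (right) on each of the 4 arrays, with lines joining the arrays of a pair. The adipocyte pair is nearly level for each gene shown, and in the fat pair Cpt1a and Ehhadh run in opposite directions.

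The carnitine shuttle held called genes in both directions. Cpt1a, the outer membrane transferase that makes carnitine esters and limits the rate of entry, had an intensity of 884 with forskolin, 807 with vehicle, and 2891 on the high fat diet against 690.0 on chow. The high fat array stood above the other 3. Cpt1a was 4.19-fold higher on the high fat diet than on chow, with bounds of 3.6 and 5 in the authors' deposited table, of unstated confidence and from 1 array per group. Its other probe sets gave 2.40-fold and 2.08-fold in the same direction.

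The remaining shuttle genes lay the other way. Cpt2, the inner membrane transferase that returns the acyl group to CoA, had 429 with forskolin, 515 with vehicle, and 1539.5 on the high fat diet against 2505 on chow. It was 1.63-fold lower on the high fat diet by this probe set and 2.90-fold lower by its other. Slc25a20, the carrier that exchanges acylcarnitine for carnitine, had 939 with forskolin, 931.5 with vehicle, and 2221 on the high fat diet against 3518 on chow, 1.58-fold lower on the high fat diet. Crat, which moves short acyl groups between CoA and carnitine, had 661 with forskolin, 672 with vehicle, and 1149 on the high fat diet against 2383 on chow. Crat was 2.07-fold lower on the high fat diet, and 1.87-fold by its other probe set.

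Cpt1b, the muscle form of the outer transferase, read 275 on the high fat diet against 320 on chow, below the level needed for a call on each array. Its log2 difference was -0.22. So of 5 shuttle genes 4 were lower on the high fat diet and Cpt1a alone was higher. Of all genes, 44.1% lay below 0. The directions of the shuttle genes were the same after centring, which moves every gene down equally, and after quantile normalization. The shares of all genes below 0 were then 61.0% and 56.4%.

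The 250 bases upstream of the Cpt1a start site (RefSeq, GRCm38.p6, chr19:3323051-3323300, plus strand) are shown because Cpt1a stood apart from the rest of the shuttle. Capitals mark matches on either strand to the GC box GGGCGG, the CCAAT box and the nuclear receptor motif AGGTCA.
Cpt1a: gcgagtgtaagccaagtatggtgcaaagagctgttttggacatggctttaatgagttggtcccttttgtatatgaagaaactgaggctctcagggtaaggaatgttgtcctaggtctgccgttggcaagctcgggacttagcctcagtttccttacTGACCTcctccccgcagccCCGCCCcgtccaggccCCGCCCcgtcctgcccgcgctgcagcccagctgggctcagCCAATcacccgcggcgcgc

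The 4 acyl-CoA dehydrogenases, which carry out the first step for chains of different length, lay close to 0. Acadm, the medium-chain enzyme, had 2686 with forskolin, 2647 with vehicle, and 5807 on the high fat diet against 6227 on chow, a log2 difference of -0.10 for the diet. Acadl, Acadvl and Acads, the long-, very-long- and short-chain enzymes, had diet differences of -0.03, -0.19 and -0.02. The electron transfer flavoprotein genes Etfa and Etfb had -0.20 and 0.07, the second turning to -0.14 after centring and -0.28 after quantile normalization. Etfdh, which passes the electrons to ubiquinone, read 952 with forskolin, 949 with vehicle and 1399 on the high fat diet.

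Hadha and Hadhb encode the α and β subunits of the mitochondrial trifunctional protein, which runs the later steps on long chains. Hadha had 1898 with forskolin, 2022 with vehicle, and 3048 on the high fat diet against 2823 on chow. Hadhb had 3280.1 with forskolin, 3332 with vehicle, and 5084 on the high fat diet against 4329 on chow. Their diet differences were 0.11 and 0.23, and -0.25 and -0.11 after quantile normalization, so the sign rests on the scaling. A second Hadhb probe set of like brightness (4836 on the high fat diet, 5082 on chow) gave -0.07 as deposited, so for Hadhb the sign also turns with the probe set.

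The 2 genes lie head to head, with start sites 273 bases apart, and their upstream windows overlap by 228 bases. The window of Hadhb (GRCm38.p6, chr5:30155003-30155252, plus strand) is shown because most of it is also the window of Hadha on the opposite strand. Capitals mark the GC box, matched at 2 positions.
Hadhb: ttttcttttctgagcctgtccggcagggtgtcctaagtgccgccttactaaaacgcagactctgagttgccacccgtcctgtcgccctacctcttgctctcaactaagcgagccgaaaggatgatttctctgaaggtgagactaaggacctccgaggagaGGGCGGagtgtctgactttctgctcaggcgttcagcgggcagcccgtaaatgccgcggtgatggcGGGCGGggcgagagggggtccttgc

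Hadh, the short-chain hydroxyacyl-CoA dehydrogenase, was lower on the high fat diet by each of its 3 probe sets, at 1.22-fold, 1.23-fold and 1.16-fold. Its brightest probe set read 7541 on the high fat diet against 9193 on chow, where the highest value of the array was 13698.

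Acaa2, the mitochondrial thiolase, was the member whose probe sets differed most. They gave 3038 on the high fat diet against 2613 on chow, 1806 on the high fat diet against 1154 on chow, and by the third 1205 on the high fat diet against 241 on chow. The folds were 1.16, 1.57 and 5.0, all toward the high fat diet, so the size of the difference depends on the probe set. After quantile normalization the first turned to -0.14 on the log2 scale.

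Of the 4 auxiliary enzymes that handle double bonds, 1 was called lower on the high fat diet, namely Eci3. All 4 differences lay below 0, as did those of 44.1% of all genes. Decr1, which reduces dienoyl-CoA in mitochondria, had a difference of -0.11. Eci1, the mitochondrial isomerase, had 1508 with forskolin, 1581 with vehicle, and 2106 on the high fat diet against 3638 on chow, 1.73-fold lower on the high fat diet. Its peroxisomal relatives Eci2 and Eci3 are described among the peroxisomal genes.

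The widest difference of the mitochondrial list was that of Acsm3. Acsm3, a medium-chain acyl-CoA synthetase, had 42.8 with forskolin, 41.4 with vehicle, and 38.8 on the high fat diet against 993 on chow. The chow array alone was bright. Acsm3 was 25.6-fold lower on the high fat diet, with bounds of 16.4 and 57.3 in the authors' deposited table. Its high fat value was dim, and with 16 added to each intensity the log2 difference was -4.20 in place of -4.68. Acsm3 has 1 probe set.

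Acot2, a mitochondrial thioesterase that frees fatty acid from CoA, had 249.5 with forskolin, 275 with vehicle, and 90.6 on the high fat diet against 34.2 on chow. It was 2.65-fold higher on the high fat diet, below the level needed for a call on each fat array. Acot2 has a near-identical neighbour gene in the mouse, Acot1, and its single probe set may read both.

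**Figure D2:**
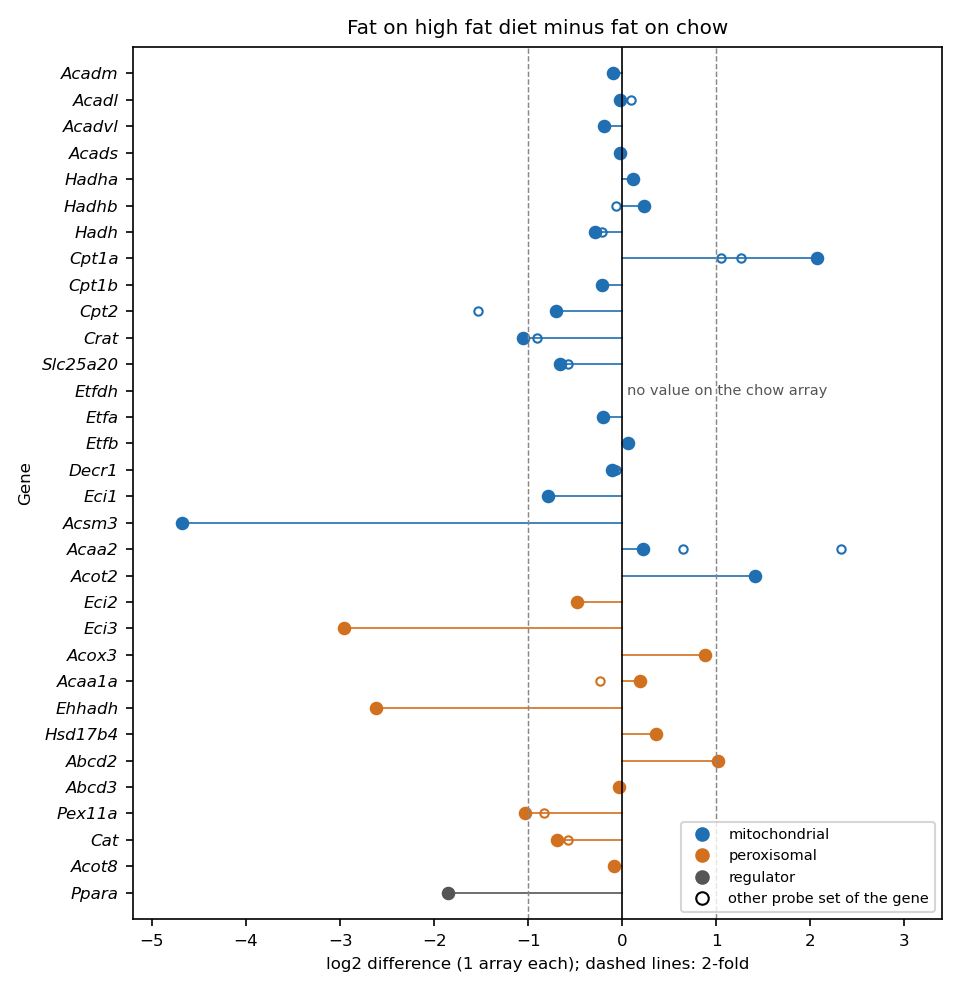
Log2 difference of fat on the high fat diet minus fat on chow for each member, with filled points for the probe set used, open points for other probe sets and dashed lines at 2-fold. By the filled points most mitochondrial members crowd around 0, with Acsm3 at -4.68 and Cpt1a at 2.07 at the ends. The peroxisomal members are spread from Eci3 at -2.96 to Abcd2 at 1.02. An open point of Acaa2 lies farther right, at 2.32.

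Among peroxisomal genes the importers differed from each other on the high fat diet. Abcd2, a transporter of very long chain acyl-CoA, had 658 with forskolin, 618 with vehicle, and 803 on the high fat diet against 396 on chow. It was 2.03-fold higher on the high fat diet, with bounds of 1.62 and 2.72 in the authors' deposited table, and was short of 2-fold after centring (0.81 on the log2 scale) and quantile normalization (0.85). Abcd3, its relative for branched and dicarboxylic chains, read 1560.4 on the high fat diet against 1593 on chow, a difference of -0.03.

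The peroxisomal cycle itself was uneven. Acox3, an oxidase for branched chains, read 347 on the high fat diet against 189 on chow, 1.83-fold higher but below the level for a call. Ehhadh and Hsd17b4 encode the L- and D-bifunctional enzymes, which run the same hydration and dehydrogenation steps with opposite stereochemistry. Ehhadh had 101 with forskolin, 96.2 with vehicle, and 359.5 on the high fat diet against 2206 on chow. Hsd17b4 had 1900.3 with forskolin, 1990.0 with vehicle, and 2800.0 on the high fat diet against 2188 on chow.

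Ehhadh was 6.14-fold lower on the high fat diet, with bounds of 5.51 and 6.91 in the authors' deposited table, whereas Hsd17b4 was 1.28-fold higher. After quantile normalization Hsd17b4 stood at 0.00 on the log2 scale and Ehhadh at -3.10. Acaa1a, a peroxisomal thiolase, gave 0.19 and -0.23 by its 2 probe sets, both of a kind that can read related transcripts, and has a near-identical relative, Acaa1b. Acot8, a peroxisomal thioesterase, was at -0.09.

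The upstream window of Ehhadh (GRCm38.p6, chr16:21787835-21788084, minus strand) is shown because Ehhadh and its counterpart Hsd17b4 lay far apart. Capitals mark the GC box and the CCAAT box on either strand.
Ehhadh: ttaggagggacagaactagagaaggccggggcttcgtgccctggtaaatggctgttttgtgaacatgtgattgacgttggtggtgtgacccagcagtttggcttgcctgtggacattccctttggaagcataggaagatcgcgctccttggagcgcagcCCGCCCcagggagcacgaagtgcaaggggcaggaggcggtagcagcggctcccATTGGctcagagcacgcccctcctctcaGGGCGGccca

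Eci2 and Eci3 encode related enoyl-CoA isomerases and are neighbours on chromosome 13. Eci2 had 1466 with forskolin, 1442 with vehicle, and 2305 on the high fat diet against 3221 on chow, 1.40-fold lower on the high fat diet. Eci3 had 321 with forskolin, 353 with vehicle, and 128 on the high fat diet against 999 on chow. Eci3 was 7.80-fold lower on the high fat diet, with bounds of 6.16 and 10.4 in the authors' deposited table. Each was read by 1 probe set.

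Their upstream windows are shown because the pair lies on the same strand, with start sites 30335 bases apart, and had diet differences of unlike size. Both are on the minus strand of GRCm38.p6, at chr13:34994145-34994394 for Eci2 and chr13:34963810-34964059 for Eci3, with capitals as above.
Eci2: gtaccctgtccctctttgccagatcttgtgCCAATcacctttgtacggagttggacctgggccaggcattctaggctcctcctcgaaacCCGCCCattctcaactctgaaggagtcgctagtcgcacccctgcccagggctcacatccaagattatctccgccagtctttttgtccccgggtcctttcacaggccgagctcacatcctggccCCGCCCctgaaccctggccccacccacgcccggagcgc
Eci3: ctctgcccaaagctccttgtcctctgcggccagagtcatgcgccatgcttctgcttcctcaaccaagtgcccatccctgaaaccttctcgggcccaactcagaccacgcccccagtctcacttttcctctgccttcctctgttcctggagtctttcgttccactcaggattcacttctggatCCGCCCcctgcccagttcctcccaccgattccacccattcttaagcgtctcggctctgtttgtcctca

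Upstream windows were found for 26 of the 32 members, 27 windows in all, and were set beside the 32851 windows of the RefSeq table. The GC box GGGCGG was in 63.0% of member windows and 32.7% of all windows, and the CCAAT box in 44.4% and 33.8%. The TATA box TATAAA was in 0 of 27 member windows and 12.4% of all windows. The nuclear receptor motif AGGTCA was in 4 member windows, those of Acadm, Acadvl, Cat and Cpt1a (14.8% against 14.0%). The partial cAMP response element TGACG was in 8 member windows (29.6% against 17.8%), and the full element TGACGTCA, which contains it, in 0 member windows and 1.55% of all windows. The direct repeat AGGNCANAGGNCA, a loose form of the element that PPAR receptors bind, was in 0 member windows and 0.338% of all windows. Both strands were read, and each arm of the direct repeat can be AGGTCA. A window without a match lacks only these letters. GC content had a median of 58.8% in member windows and 52.4% in all windows.

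Genes for the division of peroxisomes and for catalase were lower on the high fat diet. Pex11a, which promotes peroxisome division, had 471 with forskolin, 528 with vehicle, and 728 on the high fat diet against 1491 on chow. It was 2.05-fold lower on the high fat diet, and 1.78-fold by its other probe set. Cat, encoding catalase, had 3969 with forskolin, 3861 with vehicle, and 4700.0 on the high fat diet against 7597 on chow. Its folds were 1.62 and 1.49 lower by the 2 probe sets.

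Ppara had 61.5 with forskolin, 54.4 with vehicle, and 46.7 on the high fat diet against 169 on chow. Its log2 difference on the high fat diet was -1.85, or 3.62-fold lower, with bounds of 2.94 and 4.56 in the authors' deposited table. All 4 values lie below the level needed for a call, so it was not counted among the called genes.

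Peroxisomal and mitochondrial members had nearly the same median on the high fat diet when all measured members were taken, and peroxisomal members lay farther from 0. The medians were -0.09 for 11 peroxisomal and -0.11 for 19 mitochondrial members. Without the dim Acox3 the peroxisomal median was -0.29 over 10 members, while the 17 mitochondrial members that reached the level kept -0.11, so the closeness of the medians rests on 1 gene. The median size of the difference, whatever its sign, was 0.69 for peroxisomal and 0.22 for mitochondrial members, and 0.44 for all genes. After centring these sizes were 0.69 for peroxisomal members, 0.41 for mitochondrial members and 0.47 for all genes. After quantile normalization they were 0.85 for peroxisomal members, 0.55 for mitochondrial members and 0.47 for all genes, so mitochondrial members lay nearer to 0 than all genes only on the first 2 scales. Among members that reached the level, 4 of 10 peroxisomal (1 higher, 3 lower) and 3 of 17 mitochondrial (1 higher, 2 lower) were called, where 21.6% of all genes that reached it were called in either direction. The peroxisomal Eci3 and Ehhadh and the mitochondrial Acsm3 entered these counts only through the chow array, where they were brighter. For them the level rule and the call draw on the same value. After quantile normalization 4 of the 10 peroxisomal and 6 of the 17 mitochondrial members were called, against 23.9% of all genes, so the gap between the organelles was narrower there. Between 1.5-fold and 2-fold lower lay Eci1, Cpt2, Cat and Slc25a20, which brought the members at least 1.5-fold lower to 9, where 14.4% of all genes that reached the level were. The members at least 1.5-fold higher stayed at 2, against 27.9% of those genes, and 11 were apart in either direction, against 42.3%.

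**Figure D3:**
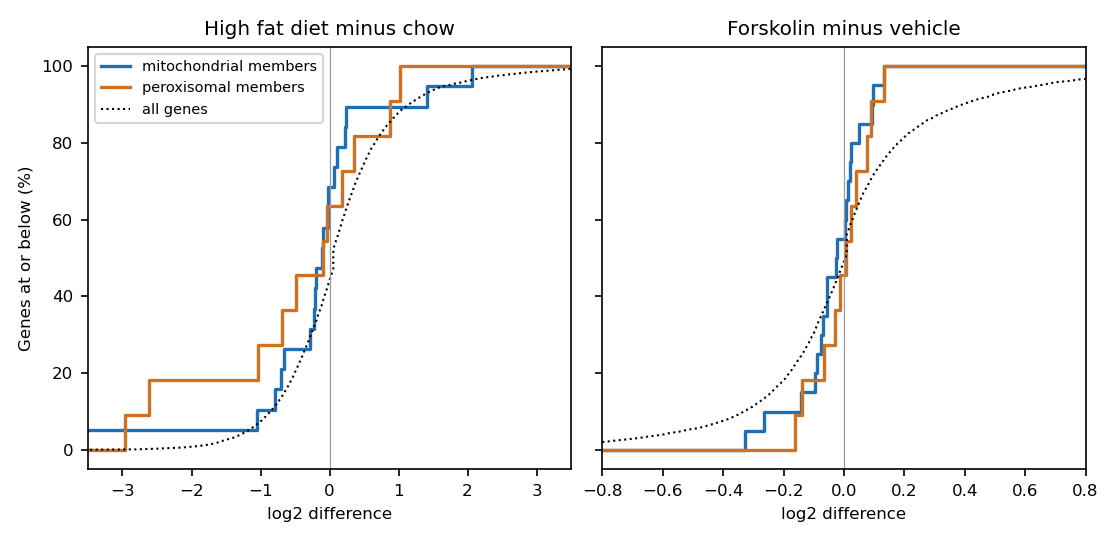
Cumulative share of genes (y axis, %) by log2 difference (x axis) for mitochondrial members, peroxisomal members and all measured genes, dim ones included. At a diet difference of -1 the curves stand at 27.3% for peroxisomal members, 10.5% for mitochondrial members and 7.43% for all genes (36.4%, 26.3% and 11.8% in the same order after quantile normalization, which is not drawn), and with forskolin all 3 climb steeply around 0.

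The other genes of the pathway gave a further view, from a list of 76 of which 66 had a value on both fat arrays. The level was reached by 53 of these, and 8 of the 53 were called lower on the high fat diet (15.1%, against 5.97% of all genes that reached it) and 3 higher (5.66%, against 15.6%). The median was -0.42 over 37 further peroxisomal genes, -0.33 over 20 further mitochondrial genes and -0.87 over 9 regulators, against 0.05 for all genes. Called lower were 4 of the 32 peroxisomal and 1 of the 16 mitochondrial genes that reached the level. In either direction 5 of the 32 (15.6%) and 3 of the 16 (18.8%) were called, against 21.6% of all genes. So the higher peroxisomal share of the members was not seen here on the deposited scale. The shares in either direction after quantile normalization were 43.8% peroxisomal and 31.2% mitochondrial, against 23.9% of all genes. After centring 10 of the peroxisomal and 3 of the mitochondrial genes were called lower, where the count over all genes was 672 in place of 429. After quantile normalization 13 of the peroxisomal and 4 of the mitochondrial genes were called lower, with 857 over all genes, so these counts depend on the scaling.

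Among those called lower were Pxmp2, a peroxisomal membrane channel gene (3.35-fold), Acot3, a peroxisomal thioesterase gene with close relatives beside it (3.11-fold), Nudt7, a peroxisomal CoA hydrolase gene (2.92-fold), and Pex3, needed to build the peroxisome membrane (2.11-fold). Hsd17b10, a mitochondrial dehydrogenase gene, was 2.91-fold lower. Called higher were Decr2, the peroxisomal dienoyl-CoA reductase gene (3.36-fold), Acsl5, an acyl-CoA synthetase gene (2.30-fold), and Acss1, a mitochondrial acetyl-CoA synthetase gene (4.39-fold). The 3 probe sets of Acss1 ran from -0.33 to 2.13 on the log2 scale.

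Of the 9 regulators, which leave out Ppara, 5 reached the level and 3 were called lower on the high fat diet. All 9 differences lay below 0, where 44.1% of all genes did, and the smallest were those of Esrra at -0.13 and Rxra at -0.11. After centring and after quantile normalization all 9 were again below 0, against 61.0% and 56.4% of all genes. Lpin1, a coactivator of PPARα and a phosphatidate phosphatase, had 1067 on the high fat diet against 5679 on chow, 5.32-fold lower. Nrip1, a corepressor of oxidative genes in fat, was 2.76-fold lower, and Ppargc1b, a coactivator of mitochondrial genes, 2.01-fold lower. Pparg, the nuclear receptor gene that drives fat cell formation and also one of the adipocyte markers, was at -0.87 on the log2 scale, short of 2-fold. Ppargc1a, a coactivator of mitochondrial genes related to Ppargc1b, read 99.6 on the high fat diet against 261 on chow, below the level for a call.

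Markers of other cells also differed between the fat arrays, and in whole fat fewer cells of a type and less RNA per cell cannot be told apart. Of 11 measured macrophage markers, 11 were higher on the high fat diet, with summed intensities of 64694 on the high fat diet against 13956 on chow. Of 13 adipocyte markers 9 were lower, 2 of them at least 2-fold, with sums of 79662 on the high fat diet against 91243 on chow. These sums rest largely on the brightest markers. Car3 read 13178 on the high fat diet, where the highest value of the array was 13228, against 13698 on chow. Cfd, also bright, read 5663 on the high fat diet against 12082 on chow. Of 4 mesothelial markers 4 were lower (993.8 on the high fat diet, 2140 on chow), and of 6 endothelial markers 4 were lower (6213 on the high fat diet, 9402 on chow). Of all genes, 44.1% lay below 0. Cdh5, the brightest endothelial marker, read 2163 on the high fat diet against 3661 on chow. Its 2 probe sets gave -0.76 and 2.16 on the log2 scale, so its sign is not settled. Of 7 brown fat markers 4 were lower (2103 on the high fat diet, 2130 on chow). Ucp1, the uncoupling protein that defines brown and beige fat, went the other way, with 391 on the high fat diet against 20.1 on chow and 300.2 with forskolin against 19.7 with vehicle, all below the level for a call. None of these markers was listed at 0 on the fat arrays, and their part in the members' differences was not tested.

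Acsm3, Eci3 and Ehhadh are known to be abundant in liver or kidney, so markers of those organs were also read. Of 8 markers 6 were lower on the high fat diet, 4 of them at least 2-fold, with sums of 2503 on the high fat diet against 11710 on chow. Of all measured genes 44.1% were lower and 7.43% at least 2-fold lower. Alb and Cyp2e1 reached the level for a call. Apoa1 (16.7 on the high fat diet, 123 on chow) and Ttr (48.6 on the high fat diet, 178 on chow) did not. The probe sets of Ttr ran from -2.29 to 0.05 on the log2 scale. Fgb was higher (90.4 on the high fat diet, 75.3 on chow). Most of that sum was Cyp2e1 (1962 on the high fat diet, 10259 on chow), which read 6497 in vehicle-treated adipocytes. Alb read 90.8 on the high fat diet against 844 on chow, and 740 with forskolin and 669 with vehicle in cultured adipocytes. The kidney markers Umod (47.0 on the high fat diet, 51.9 on chow) and Kap (139.5 on the high fat diet, 155 on chow) were within 1.5-fold, and Slc34a1 was higher on the high fat diet (108 on the high fat diet, 22.6 on chow). None of the 8 was listed at 0. Their part in the members' differences was not tested.

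With forskolin the list lay close to vehicle at 2 h. All 32 members lay within 1.5-fold, and 0 were called at 2-fold, where 1.36% of all genes that reached the level were called (1.22% higher and 0.134% lower). At 1.5-fold the share over those genes was 3.01% (2.37% higher and 0.641% lower). The difference of medians between organelles was small, at 0.01 for peroxisomal and -0.02 for mitochondrial members, with 0.00 for all genes. The 2 ends of the list were Cpt1b, 176 with forskolin and 220.5 with vehicle (1.25-fold lower), and Ppara (1.13-fold higher), both below the level for a call.

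Cpt1a was 1.10-fold higher with forskolin, and 1.27-fold and 1.30-fold by its dimmer probe sets. Cpt2 was 1.20-fold lower by the probe set used and 1.12-fold higher by its other, so its sign is not settled. Pex11a was lower by both probe sets, at 1.12-fold and 1.25-fold. Of the 68 other pathway genes with values in adipocytes, 1 was 1.5-fold apart and bright enough, namely Pex5, the peroxisomal import receptor gene, at 1.58-fold higher. Of the 9 regulators, 8 had forskolin differences above 0, as did 6638 of all 13051 genes measured in adipocytes, and 0 were called. Their median was 0.23 against 0.00 for all genes. Only 4 of the 9 reached the level, with a median of 0.28 against -0.02 for all genes that reached it. The widest differences of the 9 were those of Ppargc1a and Ppard, both below the level. Ppargc1a read 203 with forskolin and 112 with vehicle, 1.82-fold higher. Ppard read 63.7 with forskolin and 40.5 with vehicle, 1.57-fold higher. Of the adipocyte markers, 9 of 13 were higher with forskolin and none 2-fold apart.

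**Figure D4:**
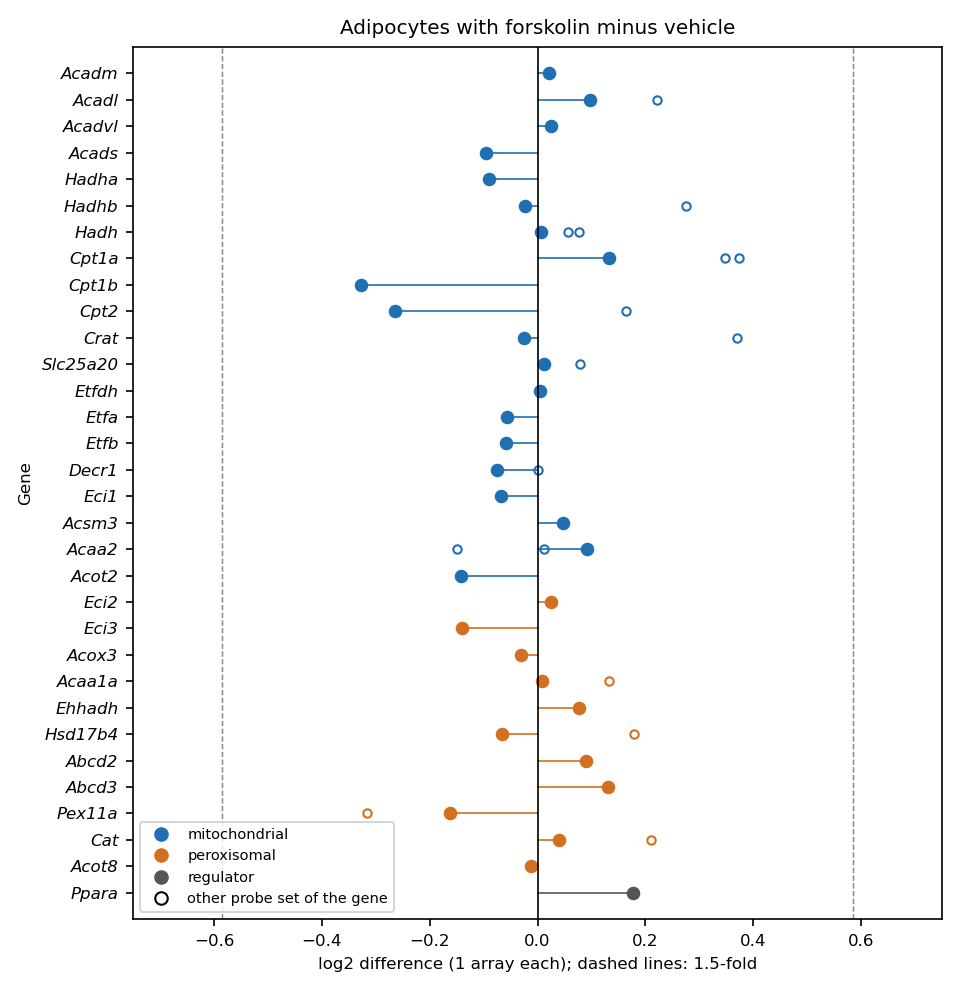
Log2 difference of adipocytes with forskolin minus vehicle for each member, with filled points for the probe set used, open points for other probe sets and dashed lines at 1.5-fold. Every point lies inside the dashed lines, and several genes have probe sets on both sides of 0.

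The diet and forskolin differences were also set side by side. Over the 31 members measured in both comparisons, which share no array, Pearson's r was -0.00 and Spearman's rho 0.05, and 14 had the same sign. This is across genes, which are not independent replicates.

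Whole fat on chow had higher levels than vehicle-treated adipocytes for 26 of 31 members and for 7173 of 12975 genes in all. After centring the counts were 23 members and 5246 genes, and after quantile normalization 27 members and 6508 genes. The chow array here is the one used for the diet. The median difference of chow fat minus vehicle adipocytes was 0.76, against 0.13 for all genes. After centring these medians were 0.51 for members and -0.12 for all genes, and after quantile normalization 0.95 and 0.00 for the same. Source and array set cannot be told apart in this comparison. Acsm3 was 24.0-fold and Ehhadh 22.9-fold higher in chow fat (values above), Cpt2 was 4.86-fold and Slc25a20 3.78-fold higher, and Crat 3.54-fold. Acot2 was 8.06-fold and Abcd2 1.56-fold lower in chow fat. Cpt1a was 1.17-fold lower in chow fat by the probe set used but 2.92-fold and 5.87-fold higher by its other 2, so its direction here is not settled.

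So of the genes most different on the high fat diet, Acsm3 on the high fat array (38.8) was close to its adipocyte values (42.8 with forskolin and 41.4 with vehicle). Ehhadh on the high fat diet (359.5) stayed above its adipocyte values, and Eci3 (128) was below them.

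**Figure D5:**
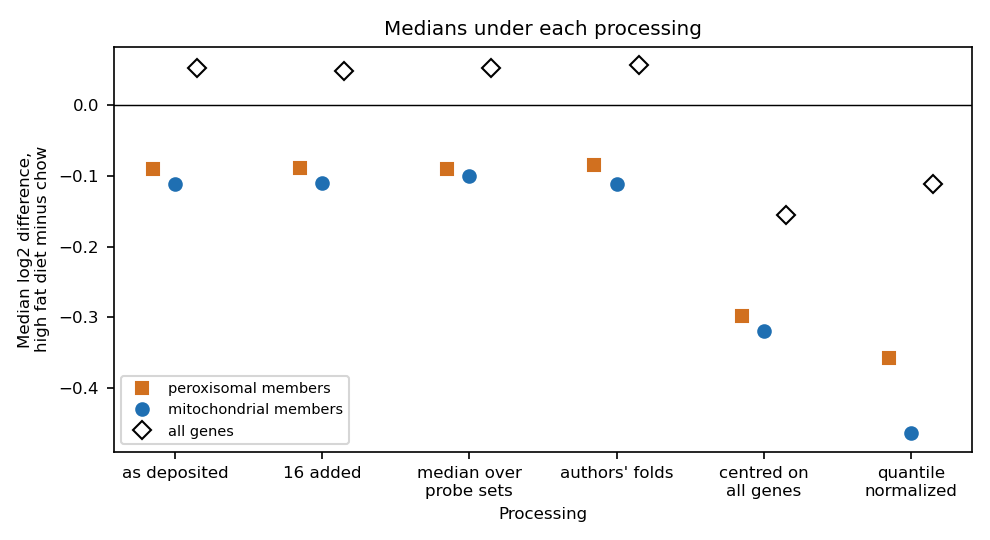
Median log2 difference of high fat diet minus chow (y axis) for peroxisomal members, mitochondrial members and all genes under 6 ways of processing (x axis). Centring and quantile normalization move all 3 medians down, and the member medians lie below that of all genes in each.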

How the data were processed

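Expression was read from 2 tables. Each probe set has 1 deposited intensity per array, linear in scale. How these were computed from the scans, background and scaling included, is not given here. Per the labels, RNA was labelled with biotin. The second table, per the file headers, repeats these intensities (equal in 90504 of 90504 cells) and adds the authors' signed fold changes with bounds of unstated confidence, a score that is negative where a gene was lower. All 48 member probe sets were named by gene ID through a RefSeq table of GRCm38.p6.

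Intensities below an array's 10th percentile were set to it (22.2 with forskolin, 22.1 with vehicle, 26.0 on the high fat diet, 25.1 on chow) before log2. Empty cells were left out. No p-value was computed, since each group held 1 array. The alternatives were centring, quantile normalization, 16 added in place of the floor, the median over probe sets, leaving out probe sets ending in _s_at or _x_at, the authors' folds, other folds and level filters, and leaving out Crat and Eci2. A value counted as moved when it changed by more than the members' median gap between probe sets (0.18 for the diet, 0.17 for forskolin, 0.37 for chow fat against adipocytes), and a count by over 1.5 times.

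The members, gene lists and marker lists were chosen with earlier results of these data known. All 32 members were named whatever their value. Of the other pathway genes, those at least 2-fold apart on the diet that reached the level were named. Pparg, Ppargc1a, Esrra, Rxra, Pex5, Ucp1, Adipoq, Umod, Kap, Slc34a1, Cyp2e1 and Alb were named after their values were seen. The same holds for Ppard, Cidea, Cox7a1, Cdh5, Apoa1, Ttr and Fgb. The motifs and the promoters printed were also chosen after values were seen. The steps were tested on simulated arrays. Python 3.11.15, pandas 2.3.3 and numpy 2.4.6 were used.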

Additional observations from a re-analysis of the deposited data

How the results depend on the processing

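On the high fat diet the mitochondrial median moved to -0.32 after centring and -0.46 after quantile normalization, and the peroxisomal median to -0.30 and -0.36. Members called higher numbered 1 after centring, after quantile normalization, with 16 added, with the 75th percentile filter and at 3-fold, each time Cpt1a. Members called lower numbered 9 after quantile normalization and 9 at 1.5-fold, and 3 at 3-fold. In either direction 11 were called at 1.5-fold and 4 at 3-fold. Acsm3, Eci3, Ehhadh and Cpt1a were called under each alternative run. Abcd2, Crat and Pex11a lay near 2-fold, and the median over probe sets left out Crat and Pex11a. The forskolin count stayed at 0 under each alternative, and its medians moved by less than the gap between probe sets. Fewer adipocytes, less RNA per cell and mouse-to-mouse spread cannot be told apart with 1 array per group. No paired analysis was possible because each group held 1 array.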

Other observations

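The authors' deposited table sorts most genes by a predicted CRE, the DNA element of the factor CREB, alone or beside a TATA box. The rule behind the classes was not stated. All 32 members had a class, as did 11639 of 13108 genes in all. Of the members 28 were in the class others (87.5%), against 74.9% of all genes with a class. Etfb was the member classed CRE_TATA, a class that held 9.66% of all genes with a class. Acaa2, Acadvl and Abcd3 were classed CRE_NoTATA (9.38% of members and 15.5% of all genes with a class). With forskolin these 4 genes had log2 differences of -0.06 for Etfb, 0.09 for Acaa2, 0.02 for Acadvl and 0.13 for Abcd3. The classes differed from the motif scan of the 250 bases upstream. The Etfb window held no match to TGACG, TGACGTCA or TATAAA. Among the 8 members with TGACG, Abcd3 alone had a CRE class and the rest were in the class others.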
